A study of Arabidopsis thaliana with 9 samples.

Results

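The regions described are stretches of the Arabidopsis thaliana genome on which H3K27me1 and H3K27me3 were both called in sperm chromatin and which lie beside, but not in, the centromere cores. All broad peaks of both marks on chromosomes 1 to 5 were merged wherever they touched, which gave 13960 merged regions. A merged region counted as shared when it held at least 1 peak of each mark, as 9995 did. The regions were chosen by this peak presence and by position, with the midpoint in one of 10 flank windows, which left 2316 regions (23.2% of the shared ones). The windows were 12 to 14 and 16 to 18 Mb on chromosome 1, 1 to 3 and 5 to 7 Mb on chromosome 2, and 11 to 13 and 15 to 17 Mb on chromosome 3. On chromosome 4 they were 2 to 3 and 5 to 6 Mb, and on chromosome 5 they were 9 to 11 and 13 to 16 Mb. Together they spanned 19 Mb, or 15.96% of the nuclear span of 119.1 Mb. The stretches between each pair of windows, 10 Mb in all, are called the core windows, with 771 shared regions, and the remaining 90.1 Mb the arms, with 6908.

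H3K27me1 and H3K27me3 are different methylation states of the same lysine of histone H3. In Arabidopsis, H3K27me1 is deposited by ATXR5 and ATXR6 and is known from silent heterochromatin around the centromeres, which is rich in transposons. H3K27me3 is deposited by Polycomb repressive complex 2 and is known mainly from repressed genes of the chromosome arms. The flanks of a centromere are where transposon-rich heterochromatin gives way to the gene-rich arms.

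The chromatin came from sperm nuclei of htr10 plants, sorted by their DNA stain, cut to mononucleosomes with micrococcal nuclease and immunoprecipitated with an antibody against each mark. The htr10 mutation affects HTR10 (AT1G19890, also called MGH3), the histone H3 gene of the male gamete. There were 3 immunoprecipitations for H3K27me1, 3 for H3K27me3 and 3 inputs of digested chromatin, all of genotype htr10. The ecotype label was Col-0 on 5 samples and Col-1, Col-2, Col-3 and Col-4 on 1 sample each. The 3 H3K27me3 samples carried Col-2, Col-3 and Col-4. The files analysed hold 1 broad and 1 narrow peak list per mark. They give no values of single samples and hence no error between replicates, the depth is unknown, and neither the genotype nor the sperm identity could be checked. HTR10 itself lay outside the flanks, with 0% of its length under either mark. Each peak carries the authors' own fold enrichment and −log10 q-value, the significance of the peak after correction for multiple tests. They were described and ranked only within a list, since the lists were called separately.

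The windows had the gene content of a transition zone. Protein-coding genes made up 28.2% of their bases, against 6.46% in the core windows and 64.8% in the arms. Other annotated genes, in the flanks mostly pseudogenes, made up 23.8% of the bases in the flanks, 40.4% in the core windows and 3.70% in the arms. Both comparisons rest on the annotation alone.

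Shared regions were denser, and at the median wider, in the flanks than in either neighbouring zone. They covered 38.7% of the flank span, or 7.35 Mb, against 21.6% in the core windows and 13.97% in the arms. There were 121.9 regions per Mb in the flanks, 77.1 in the core windows and 76.7 in the arms. The median flank region was 2400 bp wide (quartiles 1345 and 4227 bp, range 308 to 21236 bp), against 1988 bp in the core windows and 1437 bp in the arms. Regions of at least 10 kb numbered 55 in the flanks (2.37%), against a share of 0.870% over all shared regions. The share was higher in the core windows, at 2.72%, and 0.159% in the arms. Since peak presence chose the regions, these values are a description and were not tested.

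Density varied moderately between the 10 windows. Shared regions covered between 34.6% (chromosome 3, left) and 47.1% (chromosome 2, left) of a window, with 4.31 percentage points as the SD over the 10. The chromosome 2 and 4 windows were the fullest, with 47.1 and 42.9% on chromosome 2 and 43.6 and 41.8% on chromosome 4, while the other 6 lay between 34.6 and 38.1%. Every flank window exceeded the adjoining part of the core window, whose values ran from 14.5 to 35.8%, and the arm on the same side. Of the arms, 8 had 12.4 to 14.3% of their bases covered. The short remainders of the left arms were far fuller, with 41.0% over the first Mb of chromosome 2 and 34.4% over the first 2 Mb of chromosome 4. The chromosome 4 remainder also had more regions per Mb, 128.5, than the flank beside it, 126.0. The short arm of chromosome 4 is known for a heterochromatic knob, a stretch of transposon-rich sequence away from the centromere. Whether the knob has a part in these values was not tested.

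**Figure D1:**
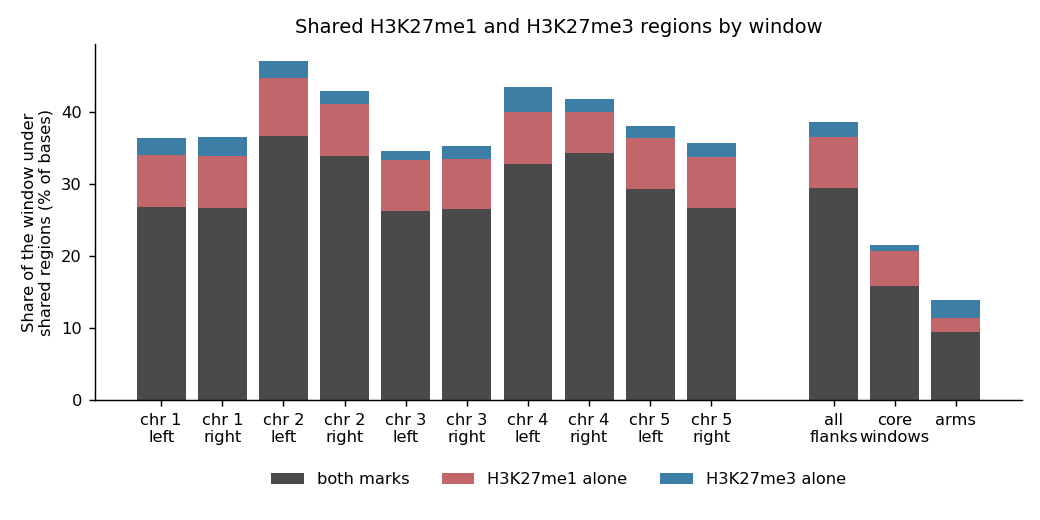
Share of bases under shared regions, in % of each window, for the 10 flank windows (left and right of each centromere) and for all flanks, core windows and arms. Bars are stacked into bases under both marks, under H3K27me1 alone and under H3K27me3 alone. There are no replicates and no error bars. All 10 flank windows stand between 34.6 and 47.1%, above the pooled core windows at 21.6% and the pooled arms at 13.97%.

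The density differed little across the flanks while genes became denser outward. In steps outward from the core window edge, counted on all 10 chromosome sides in bins of 100 kb, shared regions covered a mean of 35.6% of bases in the first 0.5 Mb and then 40.4, 39.8 and 38.7% in the next steps of 0.5 Mb. Over the same steps, protein-coding genes made up 15.1, 23.6, 32.9 and 45.4% of bases. Beyond 2 Mb shared regions covered 32.8, 27.2 and 20.4% in successive steps, and protein-coding genes 51.2, 57.8 and 61.0%. The last of these steps had 40 bins against 50 in each step before it. It leaves out the left sides of chromosomes 2 and 4, which end before it and had the fullest arms. The fall to 20.4% is therefore not measured on the same sides. On the other side of the edge, the last 0.5 Mb of the core windows had 23.1% under shared regions and 8.18% in protein-coding genes. Those means include the chromosome 2 left bins centred 0.45 and 0.35 Mb inside the core window. These bins had 0% under shared regions but 49.7 and 34.4% in protein-coding genes. Single bins varied widely, from 5.72 to 65.0% in the first 0.5 Mb of the flanks. The 1 Mb flanks of chromosome 4 end inside this range, so the distances beyond 1 Mb include arm sequence there.

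**Figure D2:**
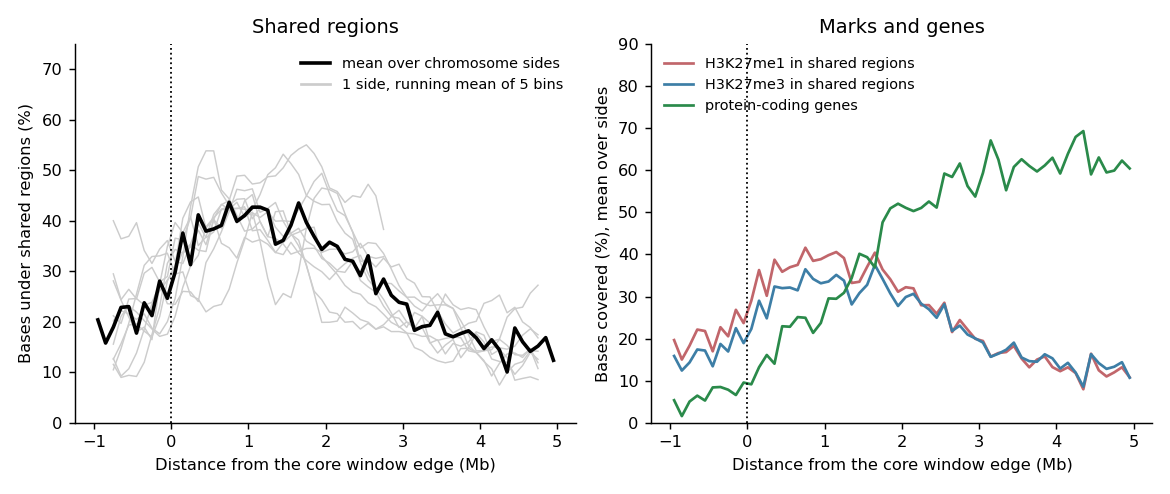
Bases covered, in %, against distance from the edge of the core window in Mb, in bins of 100 kb, with the core window at negative distances. On the left, shared regions per chromosome side (grey, running mean of 5 bins) and their mean (black); on the right, means over sides for H3K27me1 and H3K27me3 within shared regions and for protein-coding genes. The mean share under shared regions was 40.4% between 0.5 and 1 Mb and 20.4% between 3 and 3.5 Mb, where protein-coding genes made up 61.0% of bases. Beyond 3 Mb the means leave out the left sides of chromosomes 2 and 4, which end there.

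The window edges were not boundaries of the marks on the arm side. In the 200 kb strips just inside the edge towards the arms, 34.6% of bases lay under shared regions and the median region was 1999 bp wide, against 35.4% and 2108 bp in the 200 kb just outside it. At the edge towards the core the strips differed more, with 33.7% and 2360 bp just inside the flanks and 26.3% and 1929 bp just outside. The other threshold of the rule, at least 1 peak of each mark, was met by a narrow margin in few cases. The smallest overlap of the marks in a kept region was 40 bp, on chromosome 2 from 6013063 to 6013768 (TAIR10), and 4 of the 2316 regions shared fewer than 100 bp. Left out of the same windows were 415 single-mark regions, 321 with H3K27me1 alone and 94 with H3K27me3 alone. They were short and weak, with median widths of 667 and 630 bp and median −log10 q-values of 2.1 and 1.7. The median distance to the other mark was 2369 bp for H3K27me1 and 2474 bp for H3K27me3, and none lay within 200 bp of it.

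Within a flank region the marks largely coincided, and where they did not, H3K27me1 reached farther. Bases under both marks made up 76.2% of region length, H3K27me1 covered 94.7% and H3K27me3 81.5%. In the median region 81.8% of the length lay under both marks, and 1964 regions (84.8%) were covered by both over at least 50% of their length. A single region, on chromosome 5 from 15886310 to 15887347, lay wholly under both marks. H3K27me1 alone held 1.36 Mb and H3K27me3 alone 0.386 Mb, a ratio of 3.52. H3K27me1 set 2990 of the 4632 region ends (64.6%), overhanging the other mark by a median of 86.5 bp, and H3K27me3 set 1524 (32.9%), by a median of 44.5 bp. H3K27me1 enclosed H3K27me3 in 1032 regions (44.6%) and was enclosed by it in 278.

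This tilt towards H3K27me1 lay between those of the neighbouring zones. The ratio of H3K27me1-only to H3K27me3-only bases was 3.52 in the flanks, 5.62 in the core windows and 0.724 in the arms. It exceeded 1 in all 10 flank windows, from 2.04 on the left of chromosome 4 to 6.11 on the left of chromosome 3, and was above that of the arm on 10 of 10 sides and below that of the core on 9 of 10. Within the 8 flanks wider than 1 Mb, it was 5.33 in the Mb next to the core and 2.87 farther out. The H3K27me1-only share hardly differed between these parts, at 7.37 and 7.11% of bases, whereas the H3K27me3-only share was 1.38% next to the core and 2.47% farther out. The part that unequal depth of the lists has in this ratio was not tested.

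H3K27me3 was more often split into several peaks than H3K27me1 inside a region. In 2012 regions (86.9%) there was 1 peak of each mark. In 238 regions (10.3%) 1 H3K27me1 peak spanned several H3K27me3 peaks, against a share of 4.83% over all shared regions. The share in the core windows was close to it, at 9.34%, and the flank exceeded the core on only 6 of 10 sides. In 46 flank regions (1.99%) 1 H3K27me3 peak spanned several H3K27me1 peaks. The region with most H3K27me3 peaks ran on chromosome 2 from 6199616 to 6213852, where 1 H3K27me1 peak of 14237 bp held 5 separate H3K27me3 peaks covering 9181 bp. H3K27me3 was also the mark more often split in the flanks at a given width. Among regions of 5 to 10 kb, 38.8% of the 371 in flanks had several H3K27me3 peaks and 8.89% several H3K27me1 peaks, whereas in the arms both shares were 28.1%.

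**Figure D3:**
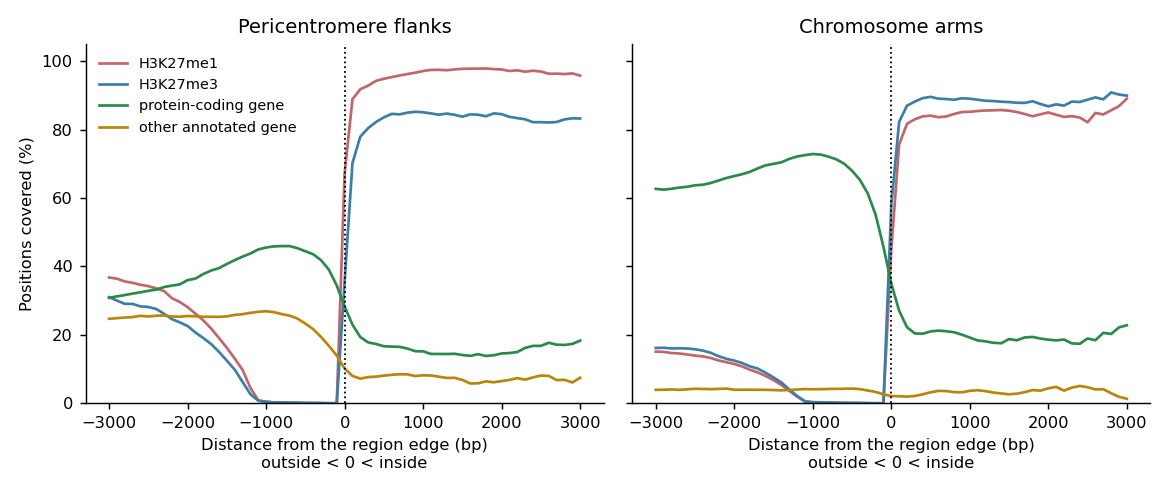
Share of positions, in %, covered by H3K27me1, H3K27me3, a protein-coding gene or another annotated gene, against distance from a region edge in bp (negative outside, positive inside), for flank regions on the left and arm regions on the right. Inside positions count only regions wide enough to hold them. In flanks, H3K27me1 stood at 94.8% and H3K27me3 at 83.6% of positions 500 bp inside the edge, while protein-coding genes covered 16.7% there and 44.4% at 500 bp outside.

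Enrichment in the flank regions was modest in each list. The strongest H3K27me1 peak of a region had a median fold of 1.65 (quartiles 1.56 and 1.76), against 1.64 in the core windows and 1.57 in the arms. For H3K27me3 the medians were 1.69 (quartiles 1.59 and 1.82) in the flanks, 1.66 in the core windows and 1.65 in the arms. For H3K27me1, 1018 flank regions held a peak with −log10 q of at least 5 (44.0%), against 22.4% of all shared regions. The share was 40.3% in the core windows and 13.1% in the arms, and the flank exceeded the core on only 6 of 10 sides. For H3K27me3, 657 flank regions did (28.4%), against 15.1% of all shared regions, 24.6% in the core windows and 9.66% in the arms. Both marks reached it in 574 flank regions (24.8%), near the 23.5% of the core windows and above the 6.50% of the arms. Among the flank windows the share for each mark was lowest in the left flank of chromosome 1, at 33.2% for H3K27me1 and 18.7% for H3K27me3. It was highest for H3K27me1 in the right flank of chromosome 4, at 57.7%, and for H3K27me3 in the right flank of chromosome 2, at 37.96%.

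The narrow lists, which hold shorter peaks at a stricter cutoff, placed a peak of both marks in 1698 flank regions (73.3%), against 52.5% of all shared regions. A further 305 regions (13.2%) had a narrow peak of H3K27me1 alone, 62 (2.68%) of H3K27me3 alone and 251 (10.8%) of neither. Wider regions had narrow peaks more often, from 46.5% with both marks under 1 kb to 96.5% at 5 to 10 kb. At a width of 2 to 5 kb the share was 82.7% in the flanks and 58.0% in the arms. Where both marks had a narrow peak, the highest summits lay a median of 60.0 bp apart (quartiles 24.0 and 480 bp). They were within 100 bp in 1022 regions, which is 60.2% of these 1698 regions. The like shares were 63.1% in the core windows and 61.6% in the arms, so summits coincided no more often in the flanks. Counted over all 2316 regions the share was 44.1%, against 32.2% of all shared regions. Those 2 shares also count regions without a narrow peak of both marks.

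The strongest regions of the windows, chosen as the one in each window with the best summed rank of fold in both marks, were near the other flank regions in gene content. Of the 10, 6 held no base of a protein-coding gene, against 45.7% of all 2316, and 4 no base of any annotated gene, against 27.5%. The leader of the right flank of chromosome 5 ranked first of all 2316. It ran from 15643116 to 15643537, 422 bp in all, with folds of 2.88 for H3K27me1 and 2.85 for H3K27me3 and −log10 q of 21.9 and 15.0. Its narrow summits were 13 bp apart, and it overlapped an end of AT5G39080 and of AT5G39090, with 34.6% of its bases in these genes. A region of the same width, 422 bp, led the right flank of chromosome 1, from 17300227 to 17300648, with folds of 2.42 for both marks and no gene base.

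On chromosome 2, the leading right-flank region ran from 6728754 to 6733618 and had the highest H3K27me1 fold of the 10, 2.94, with a −log10 q of 34.8, beside an H3K27me3 fold of 2.41. Only 1.75% of it was genic, at the edge of NRPB3, which encodes a subunit of RNA polymerase II. The leading left-flank region, from 2064685 to 2068391, had folds of 2.32 and 2.62 and the highest narrow H3K27me3 fold of the 10, 5.54, and reached into AT2G05590. The right flank of chromosome 4 was led by a region from 5908419 to 5913188 with folds of 2.54 and 2.53, and with the highest narrow H3K27me1 fold, 5.59. It held 9.12% of its bases in the pseudogene AT4G09313.

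Gene-free leaders included those of the left flanks of chromosomes 1, 3 and 5. They ran from 13565625 to 13573866 on chromosome 1 (folds 2.27 and 2.29), from 12012740 to 12019032 on chromosome 3 (2.47 and 2.42) and from 9992980 to 9995401 on chromosome 5 (2.55 and 2.40). In the first of them 98.9% of 8242 bp lay under both marks. In 9 of the 10 leaders the highest narrow summits of the marks were within 100 bp.

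Median folds were highest in the widest regions, at 1.70 for H3K27me1 and 1.80 for H3K27me3 in the 55 of at least 10 kb, against 1.62 and 1.66 in regions under 1 kb. The link of width with fold was weak over all flank regions (Spearman correlation 0.137 and 0.186). The fold is that of the strongest peak, and 70.9% of these 55 held several H3K27me3 peaks, against 0% under 1 kb. The widest region ran on the left of chromosome 4 from 2406786 to 2428021, 21236 bp in all, with 2 H3K27me1 and 4 H3K27me3 peaks, folds of 1.91 and 2.03, and 55.6% of its bases in protein-coding genes. AT4G04760 and the lncRNA gene AT4G04965 lay wholly under both marks there. The second, on the right of chromosome 5 from 15026494 to 15045377, had a single H3K27me1 peak along its whole 18884 bp with a fold of 1.65. The third, on the right of chromosome 2 from 5416646 to 5434832, was 39.8% pseudogenes and other non-coding genes, several of them wholly under both marks.

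Shared regions held a smaller share of gene bases than the rest of the same window, for protein-coding and other genes alike and in every flank window. Inside them protein-coding genes made up a mean of 17.5% of bases (SD 4.79, n = 10 windows), against 34.8% (SD 9.10) of the remaining bases of the same windows. The mean difference of −17.2 percentage points (SD 8.28) was negative in 10 of 10 windows (exact two-sided sign-flip permutation test over windows, p = 0.00195, adjusted p = 0.00195). Other annotated genes made up 7.50% inside (SD 1.99) and 34.7% outside (SD 8.53), a mean difference of −27.2 points (SD 6.97), again negative in 10 of 10 (exact two-sided sign-flip permutation test, p = 0.00195, adjusted p = 0.00195). That p is the smallest 10 windows allow, and it measures the spread between windows, not between samples. Sequence within 1 kb of a gene made up 43.5% of shared bases against 22.4% of the rest, and sequence 1 to 5 kb from a gene 30.9% against 7.78%. Of all flank sequence lying 1 to 5 kb from a gene, 71.5% was under a shared region. The sources used here do not say how reads mapping to several places were treated, and mappability was not analysed here.

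Against their neighbours, flank regions were intermediate in gene content, as the windows as a whole were. Of all bases, protein-coding genes held 28.2% in the flanks, 6.46% in the core windows and 64.8% in the arms. This order came with the position of the windows, so the tests below do not set shared regions apart from other sequence there. Inside flank regions protein-coding genes made up a mean of 17.5% of bases. The mean was 22.9% (SD 4.26) in shared regions in the arm of the same side and 7.60% (SD 2.60) in those in the adjoining part of the core window. The difference from the arms was −5.35 points (SD 3.93, negative on 10 of 10 sides, exact sign-flip permutation p = 0.00195, adjusted p = 0.00195). From the core it was 9.94 points (SD 6.25, positive on 10 of 10 sides, exact sign-flip permutation p = 0.00195, adjusted p = 0.00195). The difference from the arms was −3.39 points with peaks of −log10 q of at least 5 and did not pass the test there (exact sign-flip permutation p = 0.135, adjusted p = 0.135). The gap between zones was smaller inside shared regions than outside, where protein-coding genes held 35.3% of pooled bases in the flanks, 6.06% in the core windows and 71.8% in the arms. By count, 1058 flank regions (45.7%) touched no protein-coding gene, near the 44.4% of all shared regions. No annotated gene was touched by 638 flank regions (27.5%), against 44.0% of shared regions in the core windows and 34.7% in the arms.

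**Figure D4:**
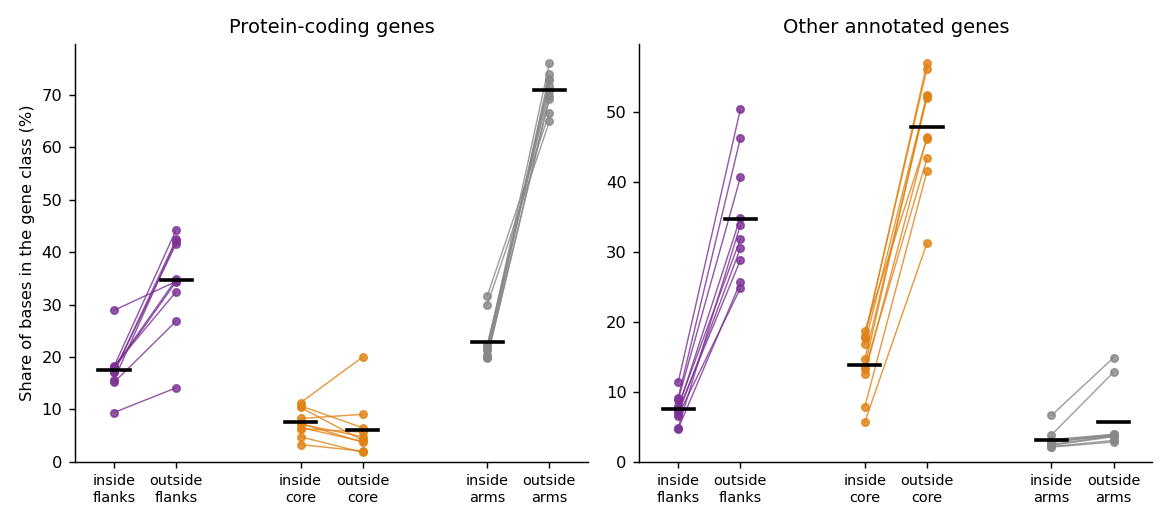
Share of bases in protein-coding genes (left) and other annotated genes (right), in %, inside shared regions and in the rest of the same window, for flanks, core windows and arms. Each line joins the values of 1 chromosome side (n = 10 per zone) and black bars are means. In flanks the mean was 17.5% inside and 34.8% outside for protein-coding genes, and 7.50% inside and 34.7% outside for other genes, with all 10 lines in the same direction.

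The flanks also held genes lying mostly under both marks. Of 2628 protein-coding genes of the windows, 390 (14.8%, Wilson 95% interval 13.5 to 16.3%, counting error only) had at least 50% of their length under each mark within shared regions, against 3.73% of the 27444 nuclear protein-coding genes. Peak calls chose the regions, so nothing is read from that gap. H3K27me1 alone reached 50% on 183 further genes and H3K27me3 alone on 67. The 390 genes lay in 339 regions, and 276 were covered along their whole length by both marks. They were short, with a median of 1033 bp against 1740 bp for all protein-coding genes of the windows. The share was 31.7% of genes under 500 bp and 7.95% of genes of 2000 bp or more. By window it ran from 9.70% on the right of chromosome 5 to 23.8% on the right of chromosome 2, and the 4 windows of chromosomes 2 and 4 all exceeded 21%. The broad lists carry these calls: 163 of the 390 genes held narrow peak bases of both marks, 140 held none, and 23 genes of the windows met the threshold with the narrow lists alone.

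In each window the leading gene was taken as the one with most bases under both marks. BR6OX2 (AT3G30180), a cytochrome P450 of the last steps of brassinosteroid synthesis, lay wholly under both, in a region on chromosome 3 from 11798063 to 11815876 with folds of 1.61 for H3K27me1 and 1.68 for H3K27me3. Narrow peaks covered 47.6% of it for H3K27me1 and 36.5% for H3K27me3. LTP (AT2G15050), a lipid transfer protein, lay wholly under both marks as well, with folds of 1.66 and 1.67. SULTR1;1 (AT4G08620), a sulphate transporter of roots, was covered 56.2% and 55.8%, and AIR3 (AT2G04160), a subtilisin-like protease induced by auxin in roots, 61.0% and 59.6%. TLL1 (AT1G45201), a lipase-like gene, had 84.2% of its length under H3K27me1 and 100% under H3K27me3. The other 5 leading genes had no symbol. AT5G28237 and AT4G04760 lay wholly under both marks, and AT1G33950, AT3G44703 and AT5G38030 were covered 63.8 to 87.3% by either mark.

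Of the 390 genes 77 carried a symbol, and 15 of these were named by the same measure beside the window leaders. OPR3 (AT2G06050), an enzyme of jasmonate synthesis needed for male fertility, was covered 62.3% by H3K27me1 and 100% by H3K27me3, with folds of 1.90 and 1.94 and narrow peaks over 38.5 and 45.5% of it. FAR4 and FAR5 encode fatty acyl reductases that make fatty alcohols. H3K27me1 lay over 63.6% of FAR4 and H3K27me3 over 62.0%, while FAR5 had 52.9 and 58.4%, with 43.4% under both at once. Wholly under both marks were SFP2, a sugar transporter, ENT4, a nucleoside transporter, TPPD, a trehalose phosphate phosphatase, APK, an enzyme of sulphate assimilation, and XTH4, an enzyme of cell wall remodelling. DES-1-LIKE, a sphingolipid desaturase, was covered 100 and 98.3%. Of these 6, only TPPD, ENT4 and DES-1-LIKE had narrow peaks of both marks, over 16.7 and 4.43%, 12.8 and 5.93%, and 26.5 and 21.3% of their length.

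ELF4-L3 (AT2G06255), related to the circadian clock gene ELF4, was the only one of the 25 named protein-coding genes with narrow peaks of both marks over at least 50% of its length, 62.0% for H3K27me1 and 74.4% for H3K27me3. MYB112, a transcription factor gene, and FTM1, a fatty acid desaturase gene known for the floral transition, lay wholly under both marks, MYB112 with no narrow peak base. HDG10, a homeodomain gene, was covered 66.9 and 65.1%, and HEN2, an RNA helicase of the nuclear exosome, 62.5 and 52.8%. ATG8B, of the autophagy machinery, lay wholly under both marks with narrow peaks over 42.7 and 44.5% of it. In all 25 genes the folds of the covering peaks stayed modest, at 2.03 or less for either mark.

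Most flank members of the LCR, SCRL and RALFL families of small secreted peptides met the 50% threshold. They were few and mostly short, so nothing is read from their counts beside the 14.8% of all protein-coding genes of the windows. That share was 31.7% for genes under 500 bp and 23.9% for genes of 500 to 1000 bp. Of 10 LCR genes, which encode cysteine-rich defensin-like peptides, 9 met the 50% threshold, and over all chromosomes 22 of 80 did. LCR82, LCR50, LCR40, LCR33, LCR30, LCR36, LCR58 and LCR80 lay wholly under both marks, LCR10 had 100% of its length under H3K27me1 and 50.7% under H3K27me3, and LCR84 had 100 and 0%. These genes were 356 to 1558 bp long. The peaks over the 9 had folds of 1.42 to 2.33 for H3K27me1 and 1.48 to 2.36 for H3K27me3, both led by LCR40, and only LCR33 and LCR30 had narrow peak bases of both. Of 4 SCRL genes, relatives of the pollen self-recognition gene SCR, SCRL9, SCRL15 and SCRL16 lay wholly under both marks and SCRL18 was covered 24.2% by H3K27me1 and slightly less by H3K27me3. RALFL5 and RALFL27, of the RALF peptide hormones, were covered 100% by H3K27me1 and 60.2 and 100% by H3K27me3. Over all chromosomes 6 of 27 SCRL and 4 of 32 RALFL genes met the threshold.

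The EMB, CYP, UMAMIT, MEE and SAUR families were also counted by symbol, with too few flank members to read anything from their counts beside the 14.8% of all protein-coding genes of the windows. Of 13 EMB genes, needed for embryo development, 0 met the threshold, and the most covered, EMB2761, had 26.3% under H3K27me1 and 20.3% under H3K27me3. None of 16 genes with symbols starting in CYP met it, a group that holds the cyclophilin CYP71 beside P450 genes and leaves out BR6OX2, also named CYP85A2. UMAMIT17, of a family of amino acid exporters, was 1 of 5 and was covered 56.4 and 53.1%. The counts were 0 of 3 for MEE and 0 of 1 for SAUR, and no CLE gene lay in the windows. Peak calls chose the regions, so these counts stand beside the 3.73% of all protein-coding genes as a description.

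Of 14 heterochromatin genes, among them ATXR5, ATXR6 and DDM1, only HTA7 (AT5G27670) had its midpoint in a window. HTA7 encodes the histone variant H2A.W, which is found in heterochromatin in Arabidopsis. It lay wholly under both marks in the left flank of chromosome 5, with peak folds of 1.72 for H3K27me1 and 1.68 for H3K27me3 and narrow peaks over 29.4% for H3K27me1 and 0% for H3K27me3. None of 12 Polycomb and H3K27 demethylase genes lay in the windows.

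Pseudogenes annotated as transcribed were under both marks more often than other pseudogenes. The share of lncRNA genes, which were shorter, was near that of the transcribed ones when length was left aside. Of 290 transcribed pseudogenes in the windows 88 (30.3%, Wilson 95% interval 25.3 to 35.9%) lay at least 50% under each mark, against 15.6% over all chromosomes. The intervals given for these classes hold counting error only. Neighbouring genes can share a peak, so the intervals are no test between classes. Of 1629 other pseudogenes 93 (5.71%, 4.68 to 6.94%) did, against 4.67%, and both classes together had 6.75% over all chromosomes. Length differed between these classes, with medians of 804 and 2099 bp. Within 500 to 1000 bp the shares were 32.4% of 74 and 14.3% of 308, and within 1000 to 2000 bp 14.6% of 89 and 7.71% of 350, a split by length made after the values were seen. By bases, 21.6% of transcribed pseudogene sequence and 4.25% of other pseudogene sequence lay under both marks, against 14.5% for protein-coding genes and 28.5% for lncRNA genes. Of 1629 pseudogenes, 1357 (83.3%) had no base under both marks. Of 472 lncRNA genes 150 (31.8%, 27.7 to 36.1%) met the threshold, against 13.0% over all chromosomes. Their median length was 332.5 bp. By the same split, the shares under 500 bp were 33.0% of 370 lncRNA genes and 50.5% of 99 transcribed pseudogenes. Protein-coding genes of that length had 31.7%. Within 500 to 1000 bp, 32.5% of 77 lncRNA genes met the threshold, near the transcribed pseudogenes. The class names are those of the annotation, and no expression was measured here. The gene table has no transposon class, so whether the pseudogene classes hold transposon genes could not be checked.

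Among the classes plotted by annotation, tRNA and snoRNA genes, which are short, had the highest shares under both marks. Of 29 tRNA genes of the windows 17 met the threshold (58.6%, Wilson 95% interval 40.7 to 74.5%, counting error only), against 19.7% over all chromosomes, with a median length of 73.0 bp. Of 15 snoRNA genes 11 did, against 22.6%, and of 39 miRNA genes 14, against 16.0%.

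**Figure D5:**
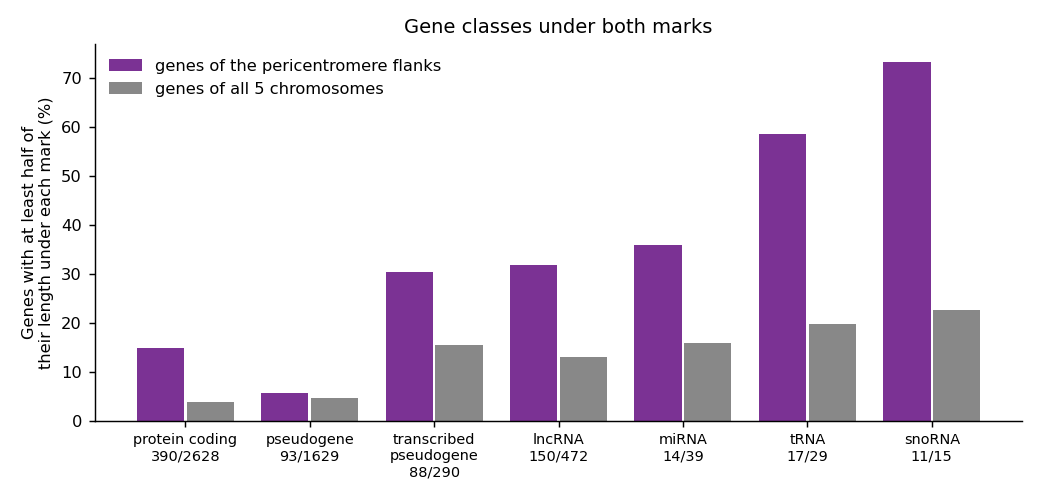
Share of genes, in %, with at least 50% of their length under each mark, by annotated gene class, for genes of the flank windows (purple, with the number under both marks over the number in the windows below each class) and for all nuclear genes of the class (grey). No error bars are drawn. Flank shares run from 5.71% for pseudogenes (93 of 1629) and 14.8% for protein-coding genes (390 of 2628) to 58.6% for tRNA genes (17 of 29) and above.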

How the data were processed

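Per the labels, 9 samples were sequenced (3 immunoprecipitations for H3K27me1, 3 for H3K27me3 and 3 inputs), and 4 peak lists were deposited. For peaks, MACS2 2.1.0 appears in the submitters' processing notes, which also list the build TAIR10 and, with no order or role, deepTools 2.5.0.1, SAMtools 1.3, Bowtie2 2.1.0, Trim Galore 0.4.1, bedtools and Picard. The sources used here do not give how samples and inputs were combined, and each list was taken as 1 call per mark. From the column layout, the authors deposited for each peak a fold enrichment (a ratio), a −log10 q-value, an integer score and, in narrow lists, a summit offset. The lowest −log10 q was 1.02 in the broad and 2.00 in the narrow lists.

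Regions were built with Python 3.11.15 and numpy 2.4.6. Touching intervals were joined and every base of a window got 1 class in this order: protein-coding gene, other gene, within 1 kb of a gene, 1 to 5 kb from one, or farther. Gene names and intervals came from a table of the assembly TAIR10.1, with 37899 nuclear genes. The files use TAIR10, so no gene coordinates are printed. Sliding the narrow peaks of each mark and window along the genes by up to 3000 bp gave the lowest genic share at 0 bp in 19 of 20 cases and within 200 bp in 20. All listed loci were found in the table. The table has no strand, exons or transposon class, and no sequences are shown.

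Gene shares were compared by exact sign-flip tests over 10 chromosome sides, adjusted by Benjamini-Hochberg over 4 tests, and the code was tested on simulated data. Named regions were the best-ranked in each window and the 3 widest. Named genes were the one with most bases under both marks in each window, 15 further genes with symbols and up to 3 of each other class. Regions, lists and rules were chosen with earlier results of these data known. One gene family counted with the others is not reported here.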

Additional observations from a re-analysis of the deposited data

How the results depend on the processing

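The number of flank regions was 576 with peaks of −log10 q of at least 5 and 1327 with the 50% of peaks of highest fold, against 2316, and stayed within 1.5 times of it under the other 5 alternatives run. The share of the flank span covered, 38.7%, was 14.9% with the narrow lists, 12.4% at −log10 q of at least 5 and 25.2% with the highest folds. It was 38.3% when the overlap had to be at least 50% of the shorter mark, 38.6% when regions had to lie wholly inside a window and 38.2% without chromosome 4. The protein-coding genes under both marks numbered 23 with the narrow lists and 111 at −log10 q of at least 5, against 390. The 4 gene comparisons kept their direction under all 7 alternatives and passed the test in each, except that the difference of flanks from arms, −3.39 points at −log10 q of at least 5, did not (exact sign-flip permutation p = 0.135, adjusted p = 0.135). The cause was not tested. No paired analysis was possible because the peak lists hold no value per sample, and for the same reason no sample could be left out. GC content was not analysed here. Depth is unknown.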

Other observations

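Some of the small RNA genes of the flanks lay close together in 1 region. On the left of chromosome 4, the snoRNA genes AT4G05055 and U49.1 (AT4G05048) lay wholly under both marks in the region from 2584601 to 2587891, whose folds of 1.98 for H3K27me1 and 2.12 for H3K27me3 were high for the flanks. Neither had a narrow peak base. Of the named miRNA genes, MIR5645d lay wholly under both marks, with narrow peaks over 100% of it for H3K27me1 and 97.0% for H3K27me3. Its relative MIR5645e was covered 100 and 85.4% by the broad lists and 81.8 and 0% by the narrow ones, and MIR2937 wholly by the broad lists and not by the narrow ones. The tRNA genes AT4G08345 (leucine) and AT3G45955 (valine) lay wholly under narrow peaks of both marks, in short regions of 1245 and 790 bp, and AT2G15950 (tyrosine) under narrow peaks of H3K27me3 alone.

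The named lncRNA, pseudogene and snRNA genes were picked for most bases under both marks, so their coverage is not that of their classes. The lncRNA gene AT2G04725, covered 99.4% by H3K27me1 and 96.5% by H3K27me3, lay in the same region of chromosome 2 as AIR3, from 1403826 to 1412365. The pseudogene AT1G33200 was covered 98.7 and 85.3%, and the transcribed pseudogene AT2G13130 wholly by both marks. The snRNA gene U4.7 was covered 83.2% by H3K27me1 and 100% by H3K27me3.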
